A study of Homo sapiens with 12 samples.

Results

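The HOX clusters of Huh-7.5 cells were examined in 55 rows of a count table of 61255 gene rows. The 55 rows are all those named for a numbered HOX gene or for a HOX antisense RNA, together with HOTAIR, HOTAIRM1 and HOTTIP, and they comprise 39 coding genes and 16 antisense or other RNA rows. HOXA holds 17 of the rows, HOXB 14, HOXC 14 and HOXD 10. Huh-7.5 is a human hepatocellular carcinoma line. The study used 3 engineered derivatives of it that all express APEX2, a peroxidase that tags molecules near it: in NES the enzyme carries a nuclear export signal, in NLS a nuclear localisation signal, and in G3BP1 it is fused to G3BP1, a core protein of stress granules. Each line was either left as a mock control or treated with 0.5 mM sodium arsenite, an oxidant stressor that halts translation, for 45 minutes, and each of the 6 groups had 2 libraries. Whether a line is a clone or a pool, and whether the replicates came from separate cultures, is not given in the sources used here, so p-values measure only the spread between these libraries.

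HOX genes encode homeodomain transcription factors and lie in 4 clusters in which their order along the chromosome follows their order of use along the body axis. Polycomb complexes keep the clusters silent and MLL complexes keep active genes on, and RNAs transcribed from between the genes, such as HOTAIR, HOTTIP and HOTAIRM1, have been linked to both. PBX and MEIS proteins bind DNA together with HOX proteins. Several HOX genes are expressed in liver tumours.

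The 12 libraries held 1090308 to 1461067 counts, of which 487 to 689 fell in HOX rows (0.0388% to 0.0572% of a library), so most HOX rows rest on few reads. In the least and the most deeply counted library, 3 counts correspond to 2.75 and 2.05 CPM, counts per 1000000 counts of the library. A row name needs care here, because the library kit keeps the strand and how featureCounts was told to use it is not given in the sources used here. Of 437 gene pairs annotated on opposite strands as X and X-AS1 with overlapping exons, the AS1 row held more counts in 305. APOA1, a major apolipoprotein of hepatocytes, had 16 to 39 counts per library and APOA1-AS had 2406 to 4711, and ALB, which encodes albumin, had 11 to 29. Throughout, a HOX name therefore denotes a row, and whether its reads came from that gene or from a transcript of the opposite strand was not tested. Of the other hepatocyte markers APOB had 77 to 145 counts and TTR at most 1. Markers of other cell types were at most 3 counts in every library for 5 of 6 fibroblast, 4 of 5 blood, 3 of 4 endothelial and 1 of 4 neural genes, with COL3A1 (6 to 70 counts) and PAX6 (150 to 266 counts) as the most counted exceptions. The differences between the 2 arsenite replicates of NES and of NLS were correlated (r = 0.293 across genes, which are not independent replicates). With 2 libraries per group, this cannot tell whether the first or the second libraries deviated. Results that rest on the second arsenite libraries of NES and NLS are given with and without them, and the first were not left out together.

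The 4 clusters differed widely in level. HOXA rows summed to 309.9 ± 44.9 CPM (SD, n = 12 libraries) and took 66.5% of all HOX counts, HOXC rows summed to 137.0 ± 21.99 CPM and took 29.4%, and HOXD rows summed to 19.2 ± 10.4 CPM and took 4.03%. HOXB was near absent: its 14 rows received 4 counts among 15503412 in all libraries together, 1 each in HOXB1, HOXB7, HOXB9 and HOXB-AS2, and 10 rows were at 0. The coding and the antisense rows of HOXB were both at this level, with at most 2 counts per library in the whole cluster, under the limit of 3 counts. In HOXA and HOXC most counts lay in RNA rows, which took 84.2% of HOXA counts (82.2% to 86.1% per library) and 83.6% of HOXC counts (75.0% to 92.9%). By the strand limit given above, these shares of rows do not show that antisense transcripts outweighed coding ones. In HOXD the single RNA row among the 55, HOXD-AS2, took 21.1% of the counts (0% to 41.9% per library). That share depends on the choice of rows by name: counting also HAGLR and HAGLROS, RNAs of the cluster with other names, RNA rows held 407 counts against 228 in coding rows, or 64.1%. ENSG00000279160, an unconfirmed transcript annotated opposite HOXD1, held 288 counts and is in neither share.

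Within HOXA the counts were concentrated at the 3' end of the cluster, from HOTAIRM1 to HOXA-AS3, with a further site at HOXA10-AS. HOXA-AS2 (chr7:27107777-27134302, plus strand, GRCh38), an antisense RNA that runs opposite HOXA3 and HOXA4, was the highest row with 202 to 312 counts and 190.0 ± 29.4 CPM (SD, n = 12). Its exons cross those of HOXA3 over 374 bases and those of HOXA4 over 254 bases on the other strand, and those rows had 21 to 43 and 7 to 18 counts. HOXA-AS3, the second most counted row of the cluster with 558 counts in all, runs opposite HOXA4 to HOXA7, and HOXA10-AS had 299. HOTAIRM1, at the 3' end of the cluster, had 4 to 25 counts. HOXA5, HOXA6, HOXA7 and HOXA13 had at most 3 counts in any library, and HOXA9, HOXA10 and HOXA11 at most 6.

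Within HOXC the counts lay at HOXC-AS2, HOXC-AS3, HOXC-AS1 and HOXC13-AS, RNAs opposite HOXC9, HOXC10 and HOXC13. HOXC-AS2 (chr12:53993810-53996785, minus strand) had 43 to 100 counts, and HOXC9 opposite it had 2 to 16. HOTAIR, the HOXC RNA linked to Polycomb, had 0 to 4 counts in a library and 15 in all. Within HOXD only HOXD3 and HOXD-AS2 reached 10 counts in any library, and HOXD4, HOXD9, HOXD10, HOXD11, HOXD12 and HOXD13 had 0 or 1 count in each.

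**Figure D1:**
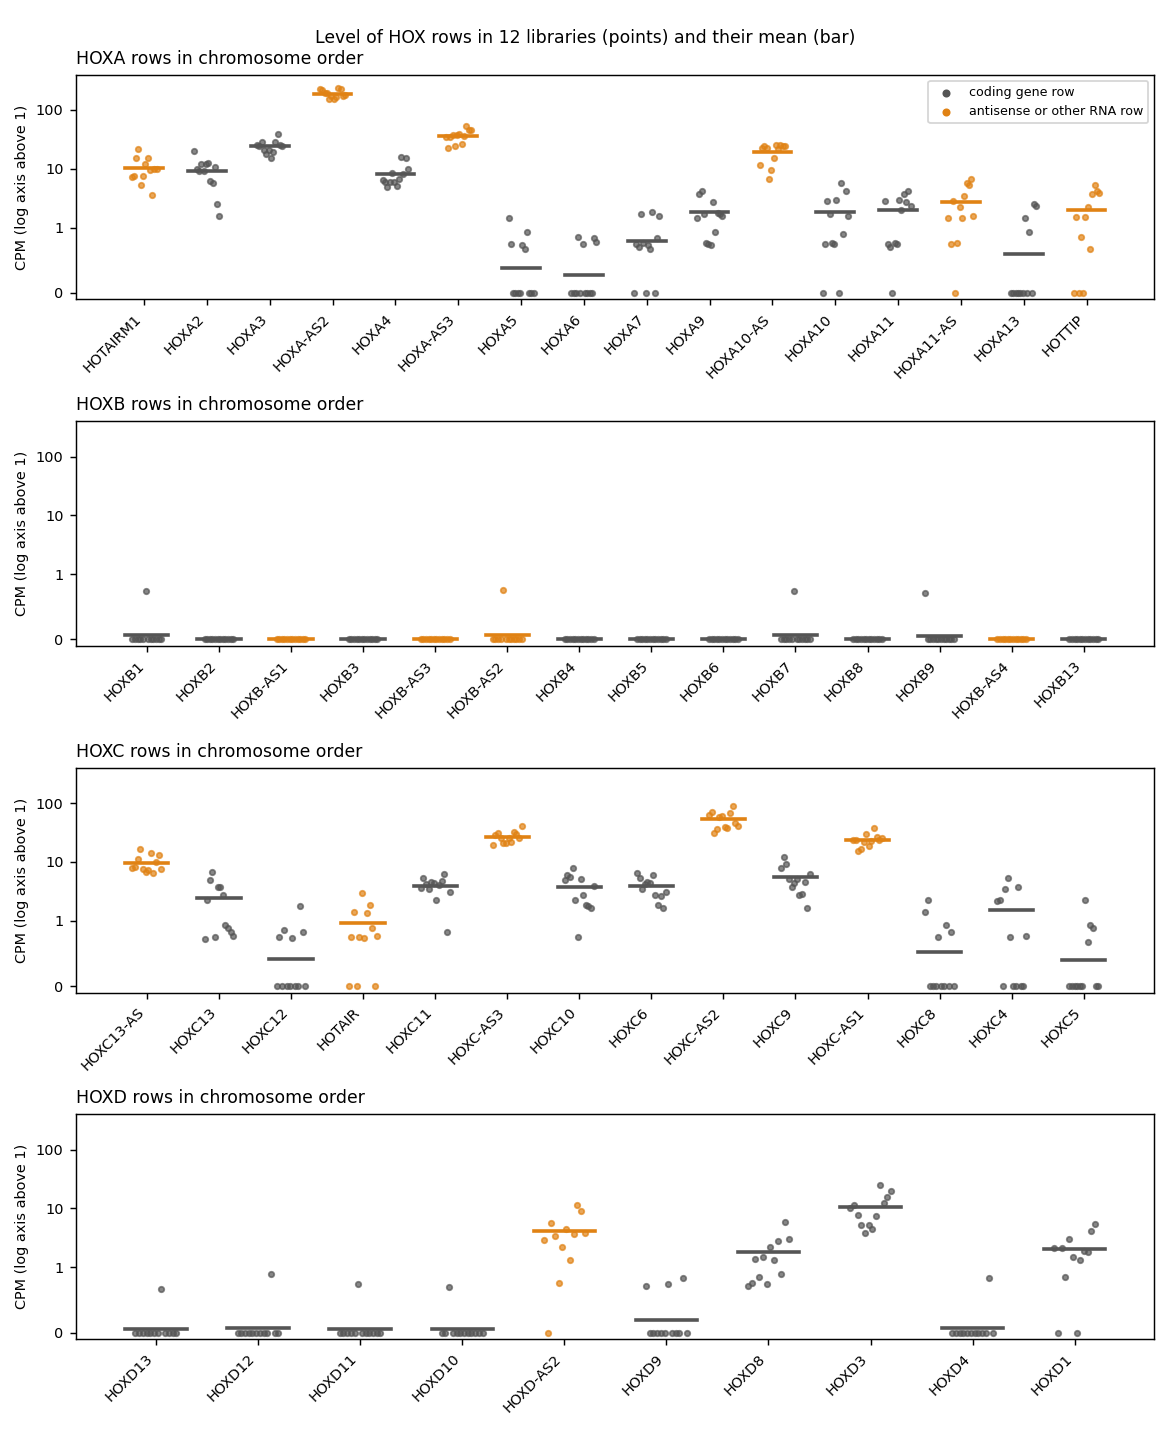
Level of HOX rows in chromosome order, 1 panel per cluster; the vertical axis is CPM, logarithmic above 1 and linear below. Each point is 1 of 12 libraries and the bar is their mean; RNA rows (orange) lead in HOXA and HOXC, and HOXB holds 4 counts in all.

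Levels of different genes were compared per kilobase of annotated exon. HOXC-AS1 was highest with 40.1 ± 10.5 CPM per kb (SD, n = 12), followed by HOXA-AS2 with 36.0 ± 5.56, HOXC-AS2 with 24.1 ± 7.93, HOXA10-AS with 11.7 ± 4.05 and HOXC-AS3 with 8.65 ± 1.99. HOTAIRM1, HOXC13-AS and HOXA-AS3 came next at 6.93, 6.91 and 6.10 CPM per kb. The highest coding rows were HOXA3 at 5.57, HOXA4 at 4.70, HOXA2 at 3.76, HOXC9 at 3.24 and HOXD3 at 3.02 CPM per kb, and HOXD-AS2 stood at 2.86. Among these 14 rows the only neighbours in the order whose mean ± SD ranges did not meet were HOXC-AS2 and HOXA10-AS. Every further row was at or below the 1.59 CPM per kb of HOXC10. Of the HOTAIRM1 exon bases 43.2%, and of those of HOXD3 62.2%, also lie in another gene of the same strand.

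The 14 rows with at least 10 counts in some library were also the 14 that passed the filter on low counts for testing, 9 RNA rows and 5 coding rows, and the tests ran over 13108 genes in all. Of the 41 rows not tested, 28 had at most 3 counts in every library, 11 of these with 0 throughout, and 13 reached 4 to 9. The filter asked for at least 10 counts per median-sized library (7.757 CPM) in 2 libraries, and for 4 of the 14 rows a single side of a line comparison supplied them: HOXA4 and HOXD-AS2 passed only through G3BP1 libraries, HOXA2 only through NES and NLS, and HOXC9 only through NES. Where such a row is high on the side that let it in, its main test is not independent of the filter, so values are also given for genes kept by a mean of at least 1 CPM over all 12 libraries, which left 22041 genes and 26 HOX rows.

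RefSeq promoters (250 bases before to 50 after a transcript start, GRCh38.p14) were found for 29 of the 55 rows, with 37 starts. Windows before the start are shown for the highest row and for 3 rows that differed in G3BP1 cells, with annotated untranslated sequence left out. They are written 5' to 3' on the strand of the gene, and capitals mark TAATTA, the core bound by many homeodomains, and GAANNTTC, the core of heat shock elements, found on either strand. HOXA-AS2 lies at chr7:27121669-27121918 (plus strand), HOXD3 at chr2:176157057-176157306 (plus), HOXD-AS2 at chr2:176137099-176137348 (minus) and HOXA2 at chr7:27102812-27102933 (minus). RefSeq and GENCODE starts differ: the HOXA-AS2 and HOXD3 windows lie inside the GENCODE spans of these rows, chr7:27107777-27134302 and chr2:176136612-176173102. They are thus not the sequence before the 5' end of the counted row. The HOXD-AS2 and HOXA2 windows end directly before the GENCODE start of their row.
HOXA-AS2: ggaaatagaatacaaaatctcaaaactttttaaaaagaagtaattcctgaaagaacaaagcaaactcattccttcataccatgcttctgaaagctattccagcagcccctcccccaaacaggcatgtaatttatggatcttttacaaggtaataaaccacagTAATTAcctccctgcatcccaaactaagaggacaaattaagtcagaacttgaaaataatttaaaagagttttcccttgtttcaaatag
HOXD3: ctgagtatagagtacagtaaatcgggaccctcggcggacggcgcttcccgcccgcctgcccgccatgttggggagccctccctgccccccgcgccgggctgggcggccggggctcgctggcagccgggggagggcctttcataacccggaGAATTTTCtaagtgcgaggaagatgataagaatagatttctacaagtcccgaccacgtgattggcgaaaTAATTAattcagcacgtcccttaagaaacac
HOXD-AS2: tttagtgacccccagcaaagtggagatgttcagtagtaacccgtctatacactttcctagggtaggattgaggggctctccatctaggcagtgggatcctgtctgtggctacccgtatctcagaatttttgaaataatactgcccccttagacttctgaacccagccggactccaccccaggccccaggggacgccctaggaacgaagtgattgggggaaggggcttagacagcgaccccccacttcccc
HOXA2: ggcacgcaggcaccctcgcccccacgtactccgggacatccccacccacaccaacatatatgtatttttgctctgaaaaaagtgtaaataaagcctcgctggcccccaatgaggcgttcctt

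The HOXA-AS2 window holds 0 CG dinucleotides in 250 bases and is 34.4% G or C, whereas the HOXD3 window holds 21 and is 59.2% G or C. The HOXD-AS2 window has 6 CG and the HOXA2 window, of 122 bases, also 6. Over the whole 300-base promoters, CG occurred in 36 of 37 HOX starts and in 96.0% of all 35116 starts in the table. TAATTA occurred in 3 of 37 HOX starts against 4.84% of all starts, and GAANNTTC in 1 of 37 against 6.77%. These matches describe letters only, and no binding was measured. The HOXA11 and HOXA11-AS promoters share 275 bases and those of HOXA13 and HOTTIP 171 bases, on opposite strands.

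The arsenite comparison asked which rows change within 45 minutes of stress on average over the 3 lines. HOTAIRM1 and HOXA10-AS rose, and HOXC-AS2, HOXC-AS1 and HOXA-AS2 fell. These 5 of 14 tested rows, all of them RNA rows, compare with 38.0% of all genes called in this contrast (19.4% higher and 18.6% lower), so the share of HOX rows was near the background. The median log2 fold change of the 14 rows was -0.13, beside -0.01 over all genes. The 5 coding rows, HOXA2, HOXA3, HOXA4, HOXC9 and HOXD3, had log2 fold changes from -0.62 to -0.10, with none called.

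HOTAIRM1 (chr7:27095647-27100265, plus strand), an RNA first described in myeloid differentiation, showed the largest rise. Its mock values were 7.16 and 7.54 CPM for NES, 5.29 and 7.43 for NLS, and 9.35 and 3.58 for G3BP1. After arsenite they were 15.3 and 21.4 CPM for NES, 11.8 and 15.5 for NLS, and 9.99 and 10.02 for G3BP1. All 6 arsenite libraries lay above all 6 mock libraries, by the least in G3BP1. Its mean was 6.72 ± 2.01 CPM in mock and 14.02 ± 4.39 CPM in arsenite libraries (SD, n = 6 each). By edgeR the change was 1.06 on the log2 scale (SE 0.246, adjusted p = 2.38e-04). Without the second arsenite libraries of NES and NLS it was 0.87 (edgeR adjusted p = 0.0152).

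HOXC-AS2, transcribed opposite HOXC9 in the annotation, showed the largest fall. Mock values were 62.3 and 70.9 CPM for NES, 57.4 and 60.9 for NLS, and 68.3 and 89.4 for G3BP1. Arsenite values were 30.6 and 36.9 CPM for NES, 39.8 and 37.8 for NLS, and 46.6 and 40.9 for G3BP1. The highest arsenite library was below the lowest mock library, and this separation held in every line. Mean values were 68.2 ± 11.5 CPM in mock and 38.8 ± 5.25 CPM in arsenite libraries (SD, n = 6 each). By edgeR the row fell by 0.81 on the log2 scale (SE 0.115, adjusted p = 3.85e-09).

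HOXC-AS1 (chr12:53999022-54000010, minus strand), the neighbouring RNA within the HOXC9 locus, fell by less. It had 23.6 and 23.4 CPM in NES mock, 21.9 and 29.7 in NLS mock and 38.3 and 26.8 in G3BP1 mock libraries. With arsenite it had 15.3 and 16.3 for NES, 18.4 and 22.2 for NLS, and 23.3 and 25.4 for G3BP1. Each arsenite library was below both mock libraries of its line in NES and G3BP1, but the values overlapped across lines and, in NLS, between treatments. The edgeR log2 fold change was -0.43 (SE 0.160, adjusted p = 0.0243). The call was lost without G3BP1 mock replicate 1 (-0.37, edgeR adjusted p = 0.0832), NLS mock replicate 2 (-0.39, 0.0662), NLS arsenite replicate 1 (-0.40, 0.0562), NES arsenite replicate 1 (-0.41, 0.0540) or NES mock replicate 1 (-0.41, 0.0501), and by DESeq2 (adjusted p = 0.0921).

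HOXA-AS2 fell slightly and from a high level. It had 224 and 215 CPM in NES mock, 153 and 171 in NLS mock and 232 and 230 in G3BP1 mock libraries. With arsenite it had 196 and 194 CPM for NES, 152 and 165 for NLS, and 171 and 179 for G3BP1. The treatments were apart in NES and G3BP1 and overlapped in NLS. The log2 fold change was -0.20 (SE 0.0633, edgeR adjusted p = 0.00770).

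HOXA10-AS (chr7:27168619-27171915, plus strand), whose exons cross 608 bases of HOXA10 and 422 bases of HOXA9, rose on average. Mock values were 11.5 and 22.6 CPM for NES, 6.80 and 9.66 for NLS, and 21.5 and 25.03 for G3BP1. Arsenite values were 24.4 and 22.3 CPM for NES, 15.5 and 24.9 for NLS, and 24.2 and 24.7 for G3BP1. The treatments were apart only in NLS, where the mock libraries were the lowest of all 12. Averaged over lines, the log2 fold change was 0.53 (SE 0.186, edgeR adjusted p = 0.0169). It was lost without NLS arsenite replicate 2 (0.39, edgeR adjusted p = 0.111), NES mock replicate 1 (0.42, 0.0779) or NLS mock replicate 1 (0.41, 0.0784), and without the second arsenite libraries of NES and NLS (0.39, 0.138).

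The remaining rows were not called. HOXA2, a hindbrain and branchial arch patterning gene, was at -0.62 on the log2 scale (SE 0.266, edgeR adjusted p = 0.0543), and HOXC13-AS, opposite HOXC13, at 0.57 (SE 0.250, edgeR adjusted p = 0.0590). HOXC13-AS had 7.88 and 8.29 CPM in NES mock, 7.56 and 6.69 in NLS mock and 6.54 and 9.83 in G3BP1 mock libraries. With arsenite it had 11.1 and 16.3 for NES, 7.38 and 14.2 for NLS and 13.3 and 7.71 for G3BP1, so that 4 of 6 arsenite libraries were above every mock library.

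**Figure D2:**
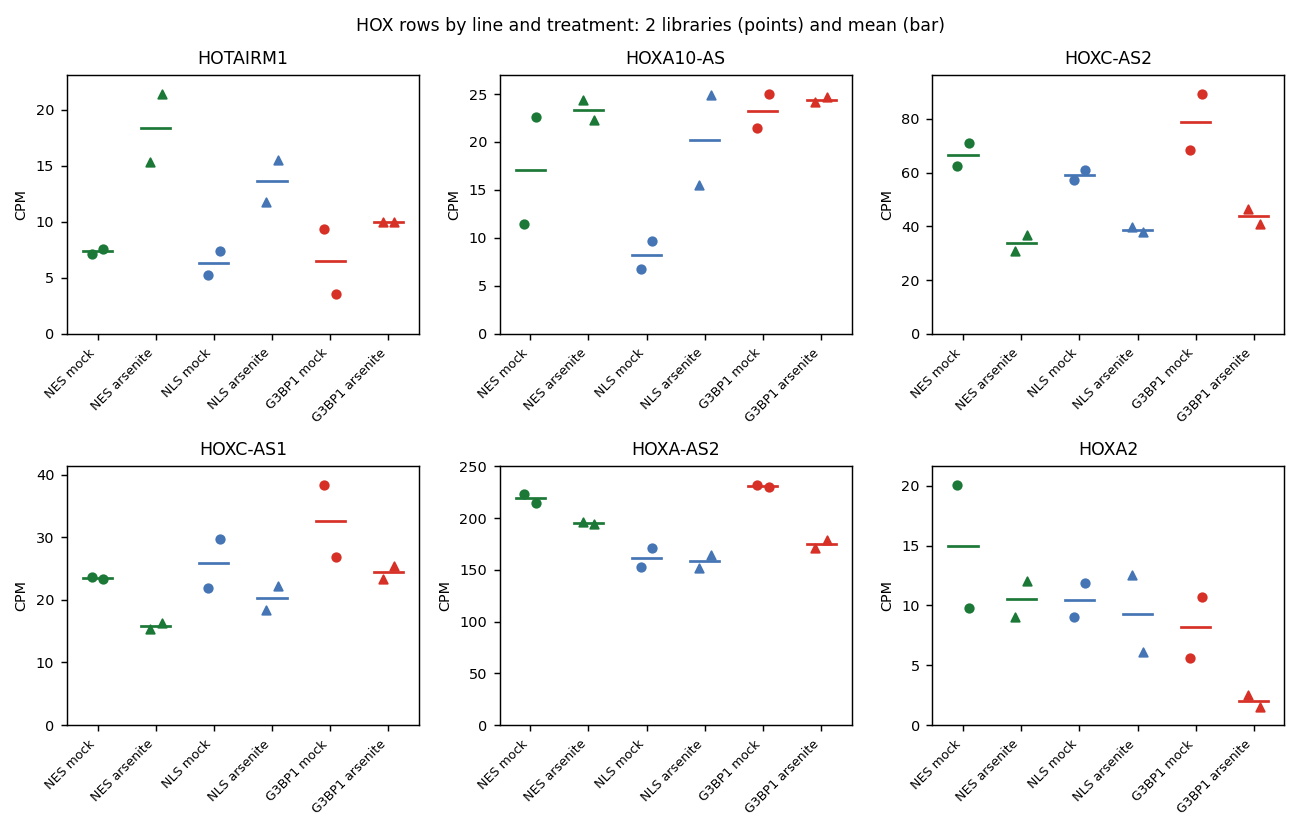
CPM of 6 HOX rows by line and treatment; circles are mock and triangles arsenite libraries, and bars are means of 2. HOTAIRM1 arsenite values (9.99 to 21.4 CPM) lie above all mock values and HOXC-AS2 arsenite values (30.6 to 46.6 CPM) below all mock values.

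The arsenite effect was then taken within each line. HOXC-AS2 fell in each of the 3 lines. By edgeR it fell by 0.99 on the log2 scale for NES cells (SE 0.200, adjusted p = 4.50e-05), by 0.61 for NLS cells (SE 0.196, adjusted p = 0.0176; 0.57 with adjusted p = 0.112 without the second arsenite libraries of NES and NLS) and by 0.85 for G3BP1 cells (SE 0.193, adjusted p = 3.87e-04). In NES, HOTAIRM1 was the other row called, at 1.29 (edgeR adjusted p = 0.00846), where 20.3% of all genes were called (10.9% higher and 9.39% lower). In NLS, HOXA10-AS was the other row called, at 1.30 (edgeR adjusted p = 0.00404), where 17.8% of all genes were called (9.66% higher and 8.13% lower). In G3BP1, HOXA-AS2 fell by 0.40 (edgeR adjusted p = 0.00249) and HOXA2 by 1.99 (SE 0.672, edgeR adjusted p = 0.0273), where 16.3% of all genes were called (9.16% higher and 7.17% lower). Scaled by total counts alone, the genes called in G3BP1 split into 930 higher and 1177 lower, against 1201 and 940 with TMM.

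HOXA2 (chr7:27100354-27102811, minus strand) had 5.61 and 10.7 CPM in the G3BP1 mock libraries and 2.50 and 1.54 with arsenite, that is 6 and 12 counts against 3 and 2. In NES it had 20.1 and 9.80 CPM in mock and 9.05 and 12.01 with arsenite, and in NLS 9.07 and 11.9 in mock and 12.5 and 6.07 with arsenite. The treatments did not overlap in G3BP1 and overlapped in the other lines. The call in G3BP1 was lost without G3BP1 mock replicate 2 (log2 fold change -1.43, edgeR adjusted p = 0.343), G3BP1 arsenite replicate 2 (-1.68, 0.189) or G3BP1 arsenite replicate 1 (-2.36, 0.0637).

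Other within-line calls also rested on single libraries. HOTAIRM1 in NES was not called without NES arsenite replicate 2 (log2 fold change 1.06, edgeR adjusted p = 0.133) or NES mock replicate 1 (1.27, 0.0681), nor without the second arsenite libraries of NES and NLS (1.06, 0.142). HOXA10-AS in NLS was not called without NLS arsenite replicate 2 (0.90, edgeR adjusted p = 0.210) or NLS mock replicate 1 (1.06, 0.0913), nor without both second arsenite libraries (0.90, 0.209). HOXC-AS2 in NLS was not called without any 1 of the 4 NLS libraries (edgeR adjusted p from 0.0557 to 0.117), and in G3BP1 not without G3BP1 mock replicate 2 (-0.63, 0.0879).

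Whether the arsenite effect differed among lines was tested directly. None of the 14 rows was called by edgeR, where 0.183% of all genes were called, and 2 had an unadjusted p under 0.05: HOXA10-AS (0.0299, edgeR adjusted p = 0.528) and HOXA-AS2 (0.0439, edgeR adjusted p = 0.576). DESeq2 called 0 rows, with 0 at an unadjusted p under 0.05. The within-line calls above are thus not shown to differ between lines.

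The lines were compared over both treatments. NLS and NES differed in HOXA-AS2, the 1 of 14 rows called, in a contrast where 10.9% of all genes were called (4.82% higher and 6.12% lower). Its 4 NLS libraries ranged from 152 to 171 CPM and its 4 NES libraries from 194 to 224 CPM, with no overlap. The means were 160 ± 9.27 and 207 ± 14.4 CPM (SD, n = 4 each). By edgeR the log2 difference of NLS from NES was -0.37 (SE 0.0773, adjusted p = 1.82e-04). The HOXA cluster as a whole summed to 259.5 ± 21.2 CPM in NLS and 324.1 ± 8.5 in NES (SD, n = 4 each).

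Over the 14 rows, HOXA-AS2 included, 2 log2 fold changes of NLS against NES were above 0 and the median was -0.34, beside -0.0016 over all genes. Over mock libraries alone 4 were above 0 and the median was -0.20, and scaled by total counts alone 4 were above 0. HOXC9, a trunk patterning gene, had 7.88 and 12.1 CPM in NES mock, 9.05 and 5.15 in NES arsenite, 3.78 and 4.46 in NLS mock and 5.16 and 2.70 in NLS arsenite libraries. The lowest NES value just fell under the highest NLS value, and the log2 fold change was -1.08 (SE 0.402, edgeR adjusted p = 0.0662), in a row that passed the filter through NES, where it is high. With the filter on the mean it was -1.09 (edgeR adjusted p = 0.0662). In G3BP1 HOXC9 had 2.81 and 4.47 CPM in mock and 1.67 and 6.17 in arsenite libraries. Scaled by total counts alone, the genes called split into 807 higher and 622 lower in NLS, against 632 and 802 with TMM.

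G3BP1 cells were compared with the mean of the other lines. HOXD3, HOXD-AS2, HOXA4, HOXA-AS3, HOXC-AS3, HOXA3 and HOXC-AS2 were higher in G3BP1 and HOXA2 was lower. These 8 of 14 rows stand beside 28.7% of all genes called (15.3% higher and 13.4% lower), but 3 of the 8, HOXD-AS2, HOXA4 and HOXA2, passed the filter only through the side on which they are high, so nothing is read from that count. With the filter on the mean over all libraries, 9 of 26 rows were called (7 higher, 2 lower), where 17.4% of all genes were called (9.26% higher and 8.14% lower). HOXA3 (edgeR adjusted p = 0.0793) and HOXC-AS2 (edgeR adjusted p = 0.0691) were not among the 9. The median log2 fold change was 0.42 over the 14 rows and -0.01 over all genes, and without G3BP1 mock replicate 2 the median over the 15 rows then tested was 0.27 with 4 called. Scaling by total counts alone shifted the median of all genes to -0.11 and that of the 14 rows to 0.32, left 5 rows called (4 higher, 1 lower), and split all called genes into 1409 higher and 2604 lower, against 2006 and 1757 with TMM.

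**Figure D3:**
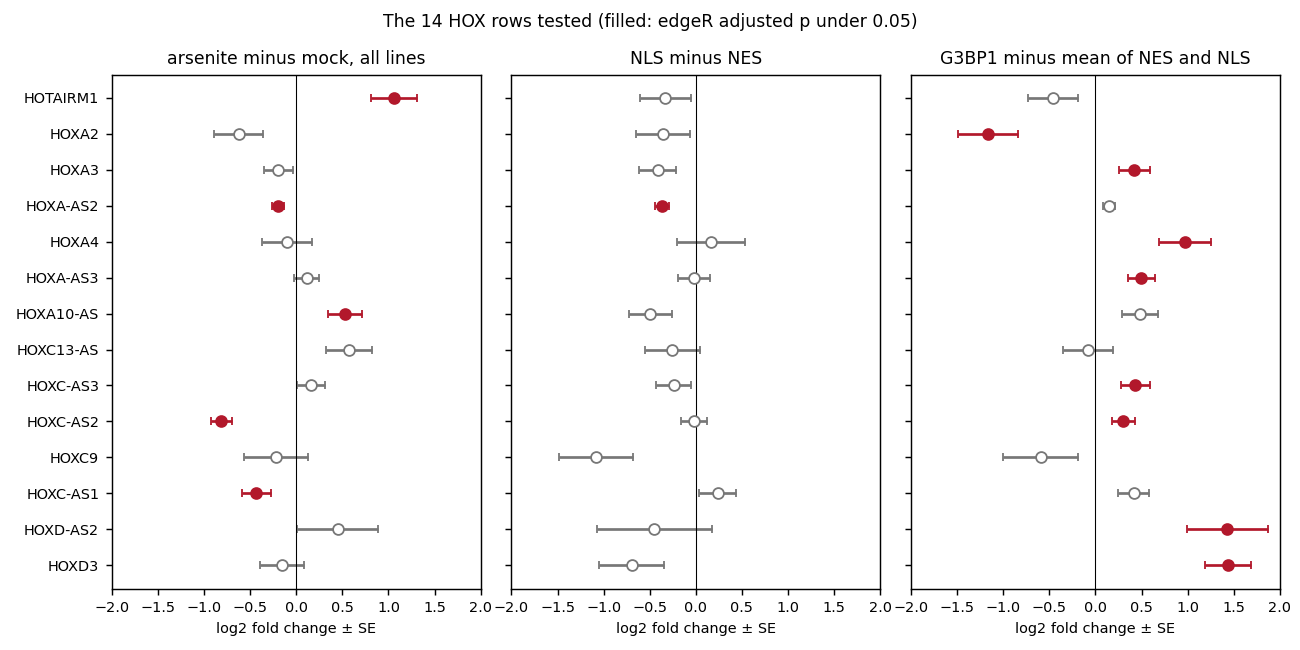
Log2 fold change ± SE of the 14 tested rows for arsenite against mock, NLS against NES, and G3BP1 against the mean of NES and NLS. Filled points have an edgeR adjusted p under 0.05: 5, 1 and 8 rows, beside 38.0%, 10.9% and 28.7% of all genes called. Of the 8, HOXD-AS2, HOXA4 and HOXA2 passed the filter only through the side on which they are high.

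The HOXD rows summed to 32.6 ± 3.7 CPM in G3BP1, 14.1 ± 3.4 in NES and 10.9 ± 1.4 in NLS (SD, n = 4 each), and those 4 G3BP1 sums were above the other 8. In CPM the means of the HOXA sums were further apart, at 346.2 ± 38.1 in G3BP1 beside the NES and NLS sums given above. By library, the HOXA sums of G3BP1 (309.2 to 385.3 CPM) overlapped those of NES (316.6 to 336.0 CPM) but not those of NLS (228.2 to 273.7 CPM). HOXD3 (chr2:176136612-176173102, plus strand) is an anterior member of the cluster, and the window shown above precedes a RefSeq start inside this span. It had 25.2 and 12.5 CPM in G3BP1 mock and 15.8 and 20.05 in G3BP1 arsenite libraries. In NES it had 10.03 and 11.3 in mock and 7.66 and 5.15 with arsenite, and in NLS 3.78 and 5.20 in mock and 4.43 and 7.42 with arsenite. All 4 G3BP1 libraries were above the other 8, though the lowest G3BP1 and the highest NES mock library were close. Against the mean of the other lines, HOXD3 was higher by 1.44 on the log2 scale (SE 0.246, edgeR adjusted p = 9.90e-07).

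HOXD-AS2 (chr2:176121611-176137098, minus strand), whose exons cross 379 bases of HOXD3, had 3.74 and 11.6 CPM in G3BP1 mock and 9.16 and 3.86 in G3BP1 arsenite libraries. NES libraries had 2.87 and 0 in mock and 5.57 and 3.43 with arsenite, and NLS libraries 0.756 and 2.23 in mock and 4.43 and 1.35 with arsenite. The lines overlapped, since the pair of lower G3BP1 values lay within the range of NES. The log2 fold change was 1.43 (SE 0.439, edgeR adjusted p = 0.00784), and without G3BP1 mock replicate 2 it was 0.92 (edgeR adjusted p = 0.220). The row passed the filter only through G3BP1, where it is high. With the filter on the mean it was 1.43 (SE 0.403, edgeR adjusted p = 0.00397).

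Beside the clusters, 6 rows outside the 55 and within 50 kb of a HOX row were tested. HAGLROS, an RNA between HOXD3 and HOXD1, had 40.2 and 46.5 CPM in G3BP1 mock and 25.8 and 24.7 in G3BP1 arsenite libraries, 11.1 to 24.0 in NES and 0.756 to 10.8 in NLS, without overlap between lines (log2 fold change 1.81, SE 0.213, edgeR adjusted p = 4.62e-12). It was also lower in NLS than in NES (-1.69, edgeR adjusted p = 2.04e-05), and it fell by 0.78 with arsenite in G3BP1 (edgeR adjusted p = 0.0236). HAGLR, an RNA opposite HOXD1 and HOXD3, was higher in G3BP1 by 1.71 (edgeR adjusted p = 3.56e-04). It passed the filter only through G3BP1, and with the filter on the mean it differed by 1.71 (edgeR adjusted p = 1.50e-04). ENSG00000279160, an unconfirmed transcript annotated opposite HOXD1 over 989 exon bases, had 34.9 to 51.7 CPM in G3BP1, 7.16 to 13.2 in NES and 3.78 to 8.85 in NLS (log2 fold change 2.45, SE 0.186, edgeR adjusted p = 4.24e-22). ENSG00000218175, a processed pseudogene beside HOXD, was not called (0.57, edgeR adjusted p = 0.0971). Beside HOXC, the RNAs FLJ12825 and FAM242C were lower in G3BP1, by -0.82 (edgeR adjusted p = 0.0144) and -1.22 (edgeR adjusted p = 0.0398) on the log2 scale, and FAM242C passed the filter through 1 NES and 1 NLS library. HOXD1 itself had 0 to 7 counts and was not tested.

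**Figure D4:**
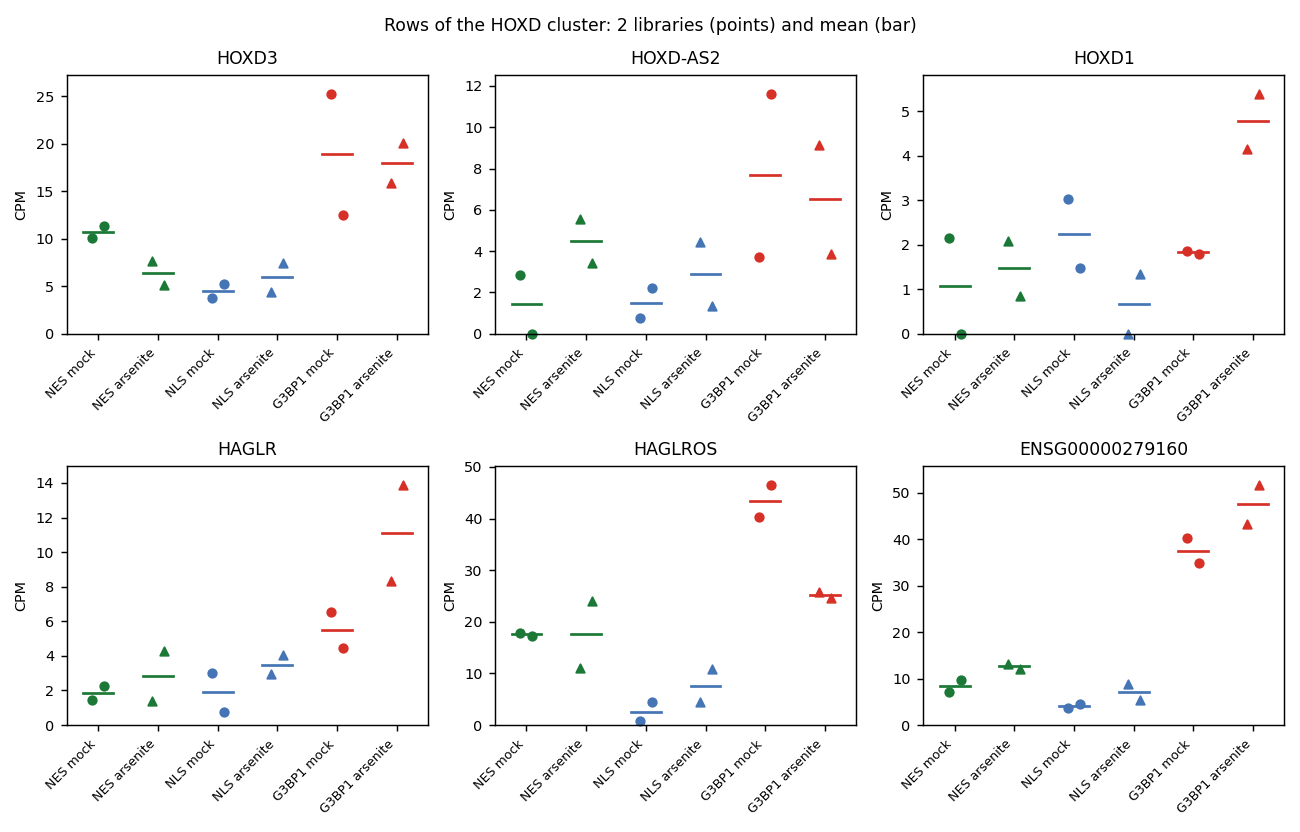
CPM of 6 rows of the HOXD cluster by line and treatment; circles are mock and triangles arsenite libraries, and bars are means of 2. G3BP1 libraries (red) are highest for HOXD3 (12.5 to 25.2 CPM) and for ENSG00000279160 (34.9 to 51.7 CPM).

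In HOXA, the coding row HOXA4 (chr7:27128507-27130799, minus strand) had 15.9 and 8.05 CPM in G3BP1 mock and 14.99 and 10.02 in G3BP1 arsenite libraries. It had 6.45 and 6.03 CPM in NES mock, 4.87 and 6.01 in NES arsenite, 8.31 and 5.94 in NLS mock and 5.16 and 6.74 in NLS arsenite libraries. Thus 3 of 4 G3BP1 libraries were above the other 8 and the fourth lay just under the highest NLS value. The difference was 0.97 on the log2 scale (SE 0.280, edgeR adjusted p = 0.00441), lost without G3BP1 mock replicate 1 (0.82, edgeR adjusted p = 0.0520) or G3BP1 arsenite replicate 1 (0.81, 0.0528). Over mock libraries alone it was 0.83 (edgeR adjusted p = 0.148). HOXA4 too passed the filter only through G3BP1. With the filter on the mean it differed by 0.97 (edgeR adjusted p = 0.00559).

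HOXA2, lower in G3BP1 by 1.16 (SE 0.325, edgeR adjusted p = 0.00323), went the other way from its neighbours HOXA3 and HOXA4. Its G3BP1 values were the 4 given above, 1.54 to 10.7 CPM, against 6.07 to 20.1 in the other lines, and the groups overlapped. Over mock libraries alone the difference was -0.61 (edgeR adjusted p = 0.308). The row passed the filter only through NES and NLS, and with the filter on the mean the difference was -1.16 (edgeR adjusted p = 0.00241).

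HOXA-AS3 (chr7:27129977-27155928, plus strand), which crosses 1507 exon bases of HOXA7, had 36.5 and 53.6 CPM in G3BP1 mock and 45.8 and 44.7 in G3BP1 arsenite libraries, and it had 35.1 and 22.6 in NES mock, 34.1 and 36.9 in NES arsenite, 24.2 and 37.9 in NLS mock and 39.1 and 26.3 in NLS arsenite libraries. The G3BP1 values were above the others except for 1 mock library. The log2 fold change was 0.50 (SE 0.146, edgeR adjusted p = 0.00513), and without G3BP1 mock replicate 2 it was 0.37 (edgeR adjusted p = 0.0945).

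HOXA3, HOXC-AS3 and HOXC-AS2 were called close to the threshold. HOXA3, a pharyngeal patterning gene, had 28.1 and 38.4 CPM in G3BP1 mock and 24.99 and 23.9 in G3BP1 arsenite libraries. Its values were 25.1 and 24.1 in NES mock, 28.6 and 20.6 in NES arsenite, 18.1 and 20.8 in NLS mock and 15.5 and 19.6 in NLS arsenite libraries. G3BP1 was above NLS throughout and overlapped NES (log2 fold change 0.42, SE 0.168, edgeR adjusted p = 0.0484). HOXC-AS3, opposite HOXC10, had 32.7 and 30.4 CPM in G3BP1 mock and 25.8 and 40.9 in G3BP1 arsenite libraries. It had 19.3 and 28.6 in NES mock, 30.6 and 25.7 in NES arsenite, 21.2 and 20.8 in NLS mock and 25.1 and 21.6 in NLS arsenite libraries. Here too G3BP1 was above NLS and overlapped NES (0.43, SE 0.160, edgeR adjusted p = 0.0307), and HOXC-AS2 differed by 0.30 (SE 0.121, edgeR adjusted p = 0.0482). All 3 had overlapping lines. Leaving out single libraries ended the HOXA3 call in 10 of 12 cases (all but NES arsenite replicate 1 and NLS arsenite replicate 2; 0.27 to 0.48, edgeR adjusted p from 0.0521 to 0.360). It ended the HOXC-AS3 call without G3BP1 arsenite replicate 2, either G3BP1 mock replicate, NES arsenite replicate 2, NES mock replicate 1 or NLS arsenite replicate 2 (0.31 to 0.43, edgeR adjusted p from 0.0514 to 0.247). Without the second arsenite libraries of NES and NLS together, neither HOXA3 (0.43, edgeR adjusted p = 0.0601) nor HOXC-AS3 (0.39, edgeR adjusted p = 0.0785) was called. The HOXC-AS2 call ended without either G3BP1 arsenite replicate, G3BP1 mock replicate 2, replicate 1 of NES arsenite or NES mock, or either NLS mock replicate (0.20 to 0.34, edgeR adjusted p from 0.0526 to 0.358).

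Rows below the filter were also fitted without it. In that fit HOTTIP, an RNA at the 5' end of HOXA linked to the MLL complex, was higher in G3BP1 by 2.30 on the log2 scale (SE 0.554, edgeR adjusted p = 7.88e-04), with 4 to 6 counts in each G3BP1 library and 0 to 3 in each of the other 8. HOXA11-AS was higher by 1.49 (edgeR adjusted p = 0.0178) with 2 to 8 counts against 0 to 5, and HOXC13 was lower by 1.78 (edgeR adjusted p = 0.0476) with 1 count in each G3BP1 library against 1 to 8. These counts lie near the limit of 3 counts and the log2 values depend on the prior count.

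Regulators and partners of HOX genes, from lists chosen alongside the rows, were mostly too low to test. Of 21 cofactor and regulator genes 6 were tested: PBX2, a HOX partner, rose with arsenite by 1.22 (SE 0.160, edgeR adjusted p = 2.82e-10) and RARB, a retinoic acid receptor, by 0.68 (SE 0.138, edgeR adjusted p = 2.83e-05), and CDX2, a caudal-type activator of HOX genes, and RXRB, a retinoid receptor, were higher in G3BP1 by 1.05 and 0.81. These last 2 passed the filter only through G3BP1, and with the filter on the mean CDX2 was called (1.05, edgeR adjusted p = 0.0101) and RXRB was not (0.81, edgeR adjusted p = 0.0612). Of 16 Polycomb genes 4 were tested, and EZH2, a methyltransferase of the complex, fell with arsenite by 0.84 (SE 0.183, edgeR adjusted p = 9.52e-05). The filter on the mean also kept EZH1 (1 to 10 counts) and CBX2 (0 to 15 counts), and both rose with arsenite. Their log2 fold changes were 1.80 (edgeR adjusted p = 2.88e-04) and 2.03 (1.71e-04), beside -0.85 for EZH2 (9.39e-05), so called Polycomb genes moved both ways. Of 12 MLL and UTX complex genes 5 were tested. KMT2C rose with arsenite by 0.37 and was higher in G3BP1 by 0.36. It was also called higher in NLS than in NES (0.39 with the filter on the mean, edgeR adjusted p = 0.0370). KMT2A, the MLL1 methyltransferase, differed in G3BP1 by -0.99, having passed the filter only through NES and NLS. With the filter on the mean its edgeR adjusted p was 0.02995. Of 12 other homeobox genes 2 were tested, and PROX1, a hepatocyte factor, was higher in G3BP1 by 0.72. The strand limit given for HOX rows holds for these rows too.

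Marker genes moved with the same groups. The 12 hepatocyte markers summed to 329.0 to 392.7 CPM in G3BP1 libraries and 212.3 to 295.3 in the others, and AFP, ALB, APOA1 and APOB were called higher in G3BP1, by 0.59 to 1.14. PECAM1, an endothelial marker with 0 to 14 counts, was higher in G3BP1 by 1.32 (edgeR adjusted p = 0.00951; 0.00665 with the filter on the mean, since it passed the main filter only through G3BP1), while VWF and KDR were at 0 and CDH5 had 1 count. The 6 fibroblast markers summed to 5.36 to 12.1 CPM in mock and 29.7 to 50.8 with arsenite, through COL3A1 (log2 fold change 2.04, edgeR adjusted p = 2.97e-18), while LUM and PDGFRA were at 0 and COL1A1 and DCN had 1 count each. Neural markers summed to 124.4 to 161.7 CPM in mock and 163.8 to 192.5 with arsenite, through PAX6 (0.30, edgeR adjusted p = 2.03e-04), with SOX2 at 1 count. Blood markers summed to 0 to 3.71 CPM in mock and 2.02 to 5.16 with arsenite, with HBB at 0. The part of these differences in the HOX results was not tested. All libraries came from derivatives of the same cell line, and in bulk RNA more cells with a transcript and more RNA per cell cannot be told apart.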

How the data were processed

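RNA was sequenced from 12 libraries after ribosomal RNA depletion with a directional kit, per the labels' protocols. The authors deposited raw counts per gene; trimming with Trim Galore, alignment with Subread, counting with featureCounts, edgeR and genome build GRCh38.p13 are named per the submitters' processing notes, without versions, and the strand setting is not given in the sources used here. Of the table's columns, 4 matched no sample and were not used. Members and lists were chosen with earlier results of these data known. Rows were located in GENCODE release 29.

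Counts were tested with edgeR 4.0.16 in R 4.3.3 (TMM, filterByExpr by group, quasi-likelihood F test, Benjamini-Hochberg over 13108 genes, called at adjusted p under 0.05). Averages over lines or treatments used an additive line and treatment model with 8 residual degrees of freedom, and within-line effects 1 mean per group with 6. SEs were derived from the F statistic. CPM used TMM-scaled library sizes. Members are given by name or within counts, with values by library for those tested or with at least 10 counts in a library. Several members below the filter are covered only by counts of rows, among them 1 that is not reported here. In simulated data for the average arsenite effect over 13108 genes, 71% of genes changed 2-fold and 97% of those changed 4-fold were recovered, and for NLS against NES 63% and 91%. The simulation gave every gene the same extra spread and changed only genes above a minimum mean level, which HOXD-AS2 did not reach. The other contrasts were not simulated. Replicates of a group differed beyond sampling noise (chi-square per degree of freedom 1.11 to 1.39). Alternatives were DESeq2 1.42.0 and its size factors, total counts alone, no filter, a mean of at least 1 CPM, a replicate block, mock libraries only, and leaving out each library.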

Additional observations from a re-analysis of the deposited data

How the results depend on the processing

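Of 21 calls of a row in a contrast, 6 held under every alternative run: HOTAIRM1, HOXA-AS2 and HOXC-AS2 for the average arsenite effect, HOXC-AS2 in NES, HOXA-AS2 between NLS and NES, and HOXD3 in G3BP1. The other 15 were lost at least once, 7 of 28 uncalled values were called at least once, and 0 calls reversed. DESeq2 called 3 rows for the average arsenite effect and 5 for G3BP1 against the other lines, where it called 3662 and 2618 of all 13108 genes. It called 1 row in NES, 0 in NLS and 1 in G3BP1, where it called 1003, 697 and 749 genes. The matching edgeR numbers of genes were 4987, 3763, 2658, 2332 and 2141, so DESeq2 called fewer genes over the whole table too. Scaling by total counts alone left 5 rows for G3BP1 against the other lines, where it called 4013 genes. The cause was not tested. Without the second arsenite libraries of NES and NLS, an alternative chosen after seeing the data, 1 row was called in NES, 0 in NLS and 2 between NLS and NES, where HOXA10-AS was added, with fewer samples in the fit. Leaving out 1 library at a time gave 3 to 6 rows for the average arsenite effect, 1 to 2 in NES, 0 to 2 in NLS, 1 to 3 in G3BP1, 1 to 2 between NLS and NES, 4 to 9 for G3BP1 against the other lines and 0 for the difference among lines. Where this left a group with 1 library, that library was assumed to vary like the others. The line that lost a library then also had fewer genes called over the whole table in its within-line contrast. Depth limits the rows under 3 counts.

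Over 15 pairs of groups, the correlation of replicate differences was 0.293 for the arsenite groups of NES and NLS. For the other pairs r ran from -0.0523 to 0.0341, so replicate numbers did not pair those libraries. With the replicate number as a block, 5 rows were called for the average arsenite effect (4985 of all 13108 genes). Within lines, 2 were called in NES (2737 genes), 2 in NLS (2406) and 3 in G3BP1 (2199). Between lines, 1 was called for NLS against NES (1449) and 7 for G3BP1 against the other lines (3742). The difference among lines had 0 (32 genes).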
